A study of Saccharomyces cerevisiae with 56 samples.

Results

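The genes described here are the 10 members of the glycolytic pathway of Saccharomyces cerevisiae that lead from glucose 6-phosphate to pyruvate, each represented by its main isozyme: PGI1, PFK1, PFK2, FBA1, TPI1, TDH3, PGK1, GPM1, ENO2 and CDC19. They were chosen by name, with no measured value in the rule, and are 10 of the 7132 coding sequences listed for every library. Ribosome profiling and RNA-seq libraries were made from 28 biological samples, 56 libraries in all, and each condition was sampled once. Ribosome profiling sequences the stretches of mRNA that lie under a ribosome and so survive nuclease digestion (footprints), and RNA-seq of the same sample gives the mRNA. Levels are given as RPKM, reads scaled to the counted length of the gene and to the reads of the library, and translation efficiency (TE) is footprint RPKM divided by mRNA RPKM.

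The yeast metabolic cycle (YMC) was sampled in CEN.PK MATa, a strain that makes its own amino acids, in a glucose-limited chemostat, at 16 time points of 1 cycle, all with cycloheximide (CHX), which blocks elongating ribosomes. The other cultures were all MATa, carried the alleles ura3-Δ0, met15-Δ0, leu2-Δ0 and his3-Δ1, and were divided into starved cells, kept for 20 min in glucose medium lacking amino acids, and replete cells. With CHX, starved and replete cells came from BY4741, which has no further change, and from 3 reporter strains. In yJW1862 (nop2::klNOP2 yhrcdelta14::PNOP2-NOP2::kanMX6) and yJW1861 (nop2::klNOP2 yhrcdelta14::PCCW12-NOP2::kanMX6) the NOP2 gene is driven by its own or by the CCW12 promoter, and yJW1863 carries at yhrcdelta14 the cassette PNOP2-5'UTRADH1-EGFP-3'UTRADH1, marked with kanMX6, and so expresses EGFP from the NOP2 promoter. A further pair with CHX came from yJW1864, labelled dot6::LEU2 tod6::URA3 stb3::kanMX6. A last pair came from BY4741 without CHX. Cells without CHX were collected by filtration and cells with CHX by centrifugation. The methods name no vehicle for the profiled cells without CHX. CHX, its solvent and the way of collection thus cannot be told apart. Each strain is represented by 1 culture, and p-values over the 4 strains rest on how the starvation change varies between those cultures.

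Glycolysis converts glucose to pyruvate with a net gain of ATP and NADH. In its upper part ATP is spent to make triose phosphates, and in its lower part ATP and NADH are gained. In budding yeast grown on glucose these enzymes are among the most abundant proteins of the cell, and their genes share the activators Rap1, Gcr1 and Gcr2. Several steps have isozymes that are used in different growth conditions, with PYK2, HXK1 and GLK1 known as genes repressed by glucose.

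The libraries held between 3632217 and 27429226 counts on coding sequences. The 10 genes took 4.88 ± 0.35% of footprint counts in starved cells and 12.6 ± 2.9% in replete cells of the 4 strains with CHX (SD, n = 4), and 3.07 ± 0.12% and 7.20 ± 0.67% of mRNA counts. Their lowest values were 9467 mRNA counts (ENO2 in starved yJW1862) and 4002 footprints (PFK1 in starved BY4741 with CHX), so counting error is small beside the differences between cultures. Replete BY4741 with CHX stood apart with 16.9% of its footprint counts on the 10 genes, and the median TE of all genes was 0.463 in starved and 0.435 in replete BY4741 with CHX, against 0.632 to 0.745 in the other samples with CHX of the starvation experiment. The same BY4741 footprint libraries held 255 (starved) and 148 (replete) footprints of MET17, the gene that all these strains lack as met15-Δ0, where the other footprint libraries of the experiment held 0. In yJW1864, DOT6 and TOD6 had at most 11 counts in any library, but STB3 had 1062 and 921 mRNA counts in starved and replete cells, as many as in strains that keep the gene, and LEU2, the marker named at dot6, had at most 1 mRNA count beside 895 and 17 footprints, so the label of this strain is only partly borne out.

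In the RefSeq annotation of the genome build R64, which is the sacCer3 build of the files, each gene has an uninterrupted coding sequence. PGI1 (YBR196C, phosphoglucose isomerase) lies on chromosome II from 612236 to 613900, and the genes of the phosphofructokinase subunits are PFK1 (YGR240C, chromosome VII, 970771 to 973734) and PFK2 (YMR205C, chromosome XIII, 671887 to 674766). FBA1 (YKL060C, fructose-bisphosphate aldolase) lies on chromosome XI from 326408 to 327487 and TPI1 (YDR050C, triose phosphate isomerase) on chromosome IV from 555726 to 556472. TDH3 (YGR192C, glyceraldehyde-3-phosphate dehydrogenase) lies on chromosome VII from 882812 to 883810 and PGK1 (YCR012W, phosphoglycerate kinase) on chromosome III from 137746 to 138996. GPM1 (YKL152C, phosphoglycerate mutase) lies on chromosome XI from 163642 to 164385, ENO2 (YHR174W, enolase) on chromosome VIII from 451327 to 452640 and CDC19 (YAL038W, pyruvate kinase) on chromosome I from 71786 to 73288. Positions that cannot be assigned to a single gene were left out of the counts, which bears on TDH3 and ENO2 because they resemble their isozymes. TDH3 was counted over 112 of its 999 bases (143 bases in the 3 reporter strains) and ENO2 over 297 of 1314 bases, whereas the other 8 genes kept between 85.5% and 98.0% of theirs. Values of TDH3 and ENO2 are therefore those of a short stretch and are less certain than those of the other genes.

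Over the metabolic cycle, mRNA of PGI1, FBA1, TDH3, PGK1 and GPM1 was highest late in the reductive charging (RC) phase. They peaked at time point 6 or 7, with dissolved oxygen at 73.4% and 72.6%. ENO2 and CDC19 mRNA peaked at time point 8, TPI1 mRNA at time point 3, and PFK1 and PFK2 mRNA at time point 1. At time point 4, also in RC, mRNA of PGI1, PFK1, PFK2, TPI1, GPM1, ENO2 and CDC19 was below its cycle median. Except for CDC19, mRNA was lowest at the end of the oxidative (OX) phase or in the first reductive building (RB) sample after it. PGK1 had the widest range, with a highest mRNA level of 4240 RPKM at time point 6, a median of 2278 RPKM and a lowest level of 331 RPKM at time point 11. This is a 12.8-fold range (95% counting interval 12.6 to 13.0, which covers counting error only). TDH3 mRNA was highest at time point 6 with 15958 RPKM, had a median of 8508 RPKM and was lowest at time point 12 with 2940 RPKM. It ranked between place 1 and place 11 of all genes at every time point, whereas PGK1 ranked between place 10 and place 309.

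The mRNA of the upper part of the pathway had narrower ranges than that of PGK1 and TDH3. PGI1 mRNA reached 721 RPKM at time point 6, with a median of 575 RPKM and a lowest value of 241 RPKM at time point 11. PFK1 mRNA was highest at time point 1 with 344 RPKM and lowest at time point 11 with 189 RPKM, around a median of 277 RPKM, and its 1.82-fold range was the narrowest of the 10. PFK2 mRNA had its extremes at the same time points, with 418 RPKM at time point 1, a median of 342 RPKM and 194 RPKM at time point 11. Between them the subunits differed, with PFK1 at 224 RPKM and PFK2 at 338 RPKM at time point 4. Both were highest in the first RB sample, but PFK2 came near that value in the RC phase, with 402 RPKM at time point 6. FBA1 mRNA ranged from 2867 RPKM at time point 12 to 6895 RPKM at time point 6, around a median of 4633 RPKM. TPI1 mRNA peaked earlier than FBA1, with 1862 RPKM at time point 3 against 448 RPKM at time point 11 and a median of 1434 RPKM.

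At the end of the pathway the peaks came later. GPM1 mRNA was highest at time point 7 with 3642 RPKM and lowest at time point 12 with 617 RPKM, around a median of 1680 RPKM. ENO2 mRNA was highest at time point 8 with 3517 RPKM, against 1218 RPKM at time point 12 and a median of 1959 RPKM. CDC19 mRNA also peaked at time point 8, with 3264 RPKM, but its lowest value, 1020 RPKM, came at time point 4 in the RC phase. Across the 16 time points, log2 mRNA levels of the 45 pairs of members correlated with a median Pearson r of 0.82, from 0.18 for PFK2 with CDC19 to 0.98 for FBA1 with TDH3. These points share the libraries of 1 culture and are given as a description.

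**Figure D1:**
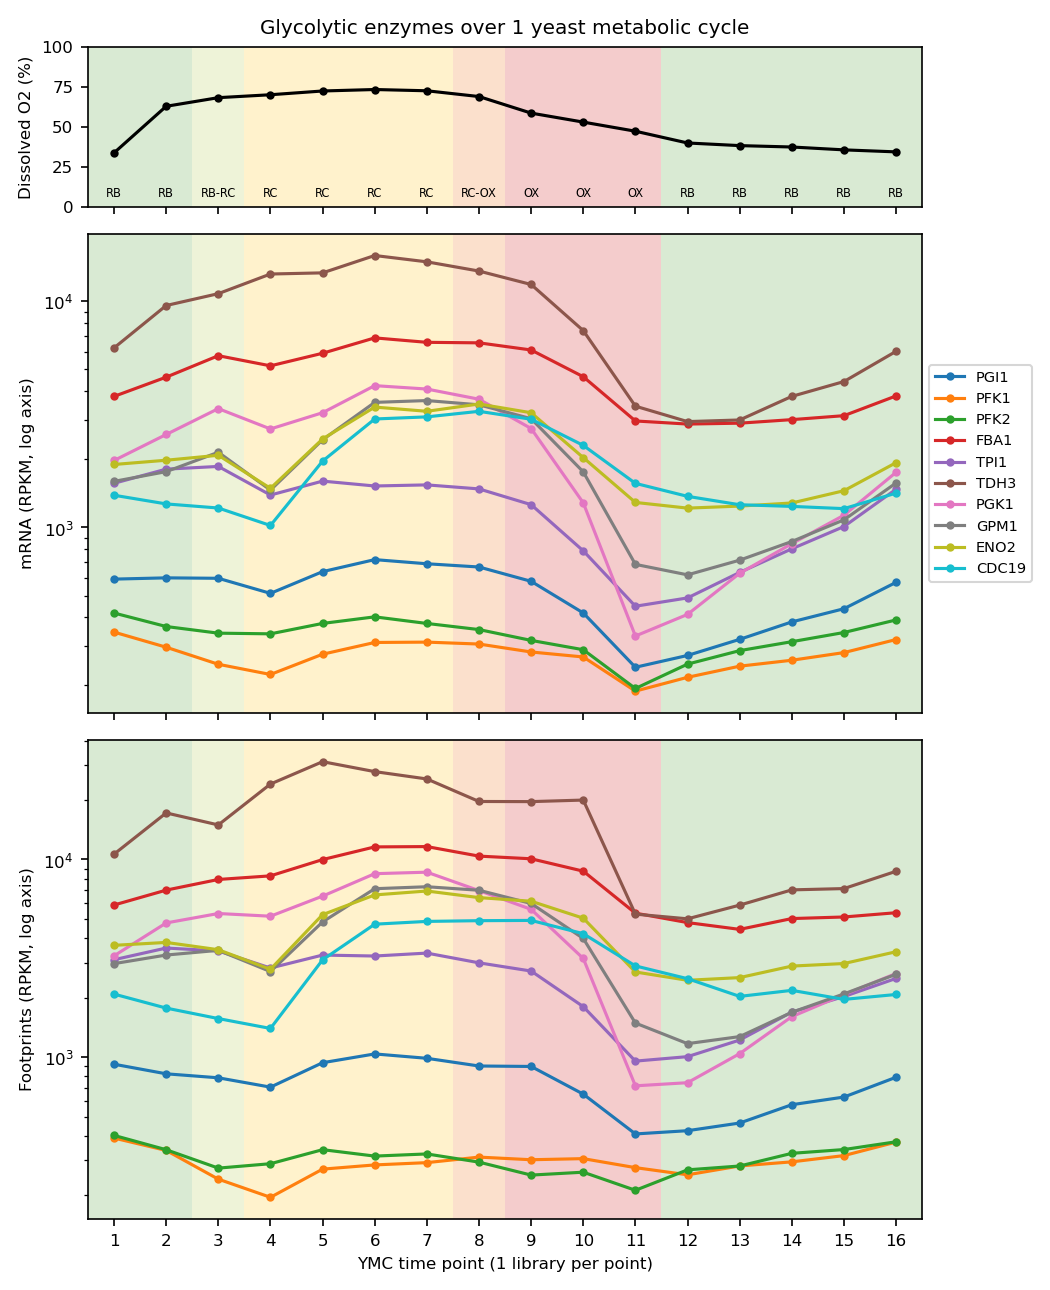
Dissolved oxygen in percent (top), mRNA RPKM (middle) and footprint RPKM (bottom, both on log axes) of the 10 genes at the 16 time points of 1 metabolic cycle, each point 1 library, with phases shaded and named at the top. PGK1 mRNA drops to 331 RPKM at time point 11, whereas CDC19 has its lowest mRNA level of 1020 RPKM at time point 4.

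Footprints of most members were high and low at time points near those of the mRNA. For PGK1 they ranged from 715 RPKM at time point 11 to 8625 RPKM at time point 7, and for TDH3 from 5008 RPKM at time point 12 to 31269 RPKM at time point 5. CDC19 footprints were lowest at time point 4 with 1396 RPKM and highest at time point 9 with 4916 RPKM. PFK1 was an exception, with footprints lowest at time point 4 (195 RPKM) and mRNA lowest at time point 11. A range of 2-fold or more was seen for 9 of the 10 members in mRNA, against 72.4% of the 4838 genes that met the count minimums in every sample, and for 8 of 10 in footprints, against 91.4% of all genes. The median range of the members was 3.10-fold in mRNA, against 2.72-fold for all genes, and 3.18-fold in footprints, against 3.93-fold for all genes. The order for footprints depended on the scaling, since with each sample divided by its median the median footprint range was 4.25-fold for the members and 3.60-fold for all genes, and that of PGK1 footprints was 18.9-fold and no longer 12.1-fold.

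TE moved little. No member (0 of 10) had a TE range of 2-fold or more, against 60.1% of all genes, and the median TE range was 1.42-fold for the members, against 2.18-fold for all genes. PGI1 TE stayed between 1.32 and 1.69 with a median of 1.44, a 1.29-fold range (95% counting interval 1.25 to 1.32) that was wider than in 0.269% of all genes. All genes include genes with fewer counts than the members, and counting error widens the ranges of such genes, in mRNA and footprints as well. No set of genes with counts like those of the members was compared. Whether narrow TE ranges are particular to the members was thus not tested. TDH3 had the widest TE range of the members, 1.95-fold, with 1.38 at time point 3, a median of 1.71 and 2.69 at time point 10, but it is also the gene with the fewest counted bases. PGK1, with a 12.8-fold range in mRNA, kept its TE between 1.51 and 2.45. When the TE of each sample was divided by the median of all genes in that sample, the median range was 1.69-fold for the members and 1.99-fold for all genes, and TDH3 then reached 2.15-fold.

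The TE maxima of the members fell at neighbouring time points, but their courses were alike only in part. Over the 45 pairs of members, log2 TE correlated across the 16 time points with a median Pearson r of 0.58, from −0.10 for PFK2 with PGK1 to 0.95 for FBA1 with GPM1. TE was highest at time point 10 for FBA1, TPI1, TDH3, PGK1, GPM1 and ENO2 and at time point 11 for PGI1, PFK1, PFK2 and CDC19. Both time points lie in the OX phase. The median TE of all genes was 1.04 and 0.982 there, against 0.670 to 0.718 in the RC phase. Relative to this median, each member but PFK1 had a higher TE in an RC sample than at either time point. The time of the TE maxima thus depends on the scaling. PFK1 TE was 0.87 at time point 4, with a median of 1.13 over the cycle and 1.46 at time point 11, its highest value. Members exceeded the median TE of all genes in 10 of 10 cases at 14 time points and in 9 of 10 at time points 9 and 10, where PFK2 lay below it. The members with the lowest TE were the phosphofructokinase subunits, PFK2 with a median of 0.92 and PFK1 with 1.13, whereas TPI1 had the highest median TE, 2.04.

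**Figure D2:**
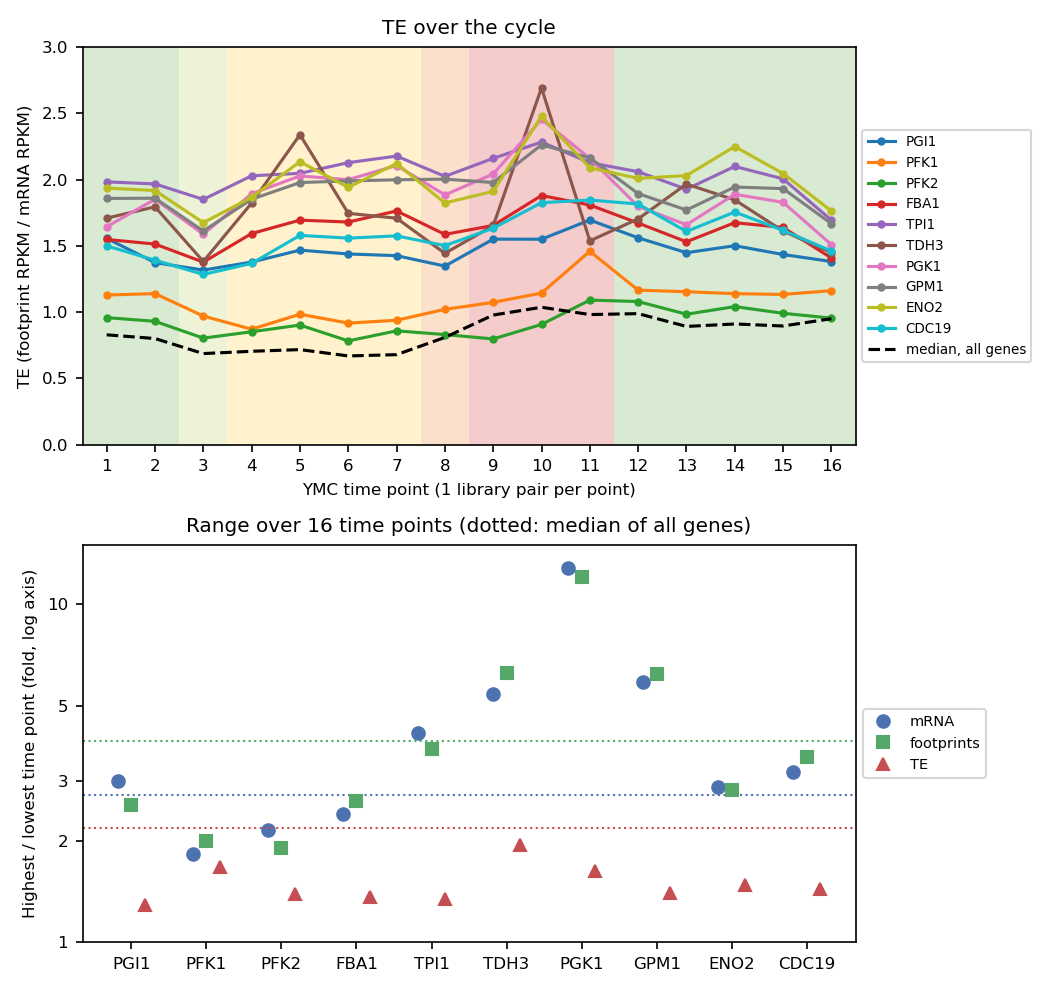
TE of the 10 genes and the median TE of all genes (dashed) at the 16 time points (top), and the highest over the lowest value of mRNA, footprints and TE for each gene on a log axis, with dotted lines for the medians of all genes (bottom). The TE ranges lie between 1.29-fold (PGI1) and 1.95-fold (TDH3), all below the dotted TE line at 2.18-fold.

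Between the OX sample at time point 11 and the RC sample at time point 4, which had 1 library of each kind, mRNA of 9 of 10 members was lower at time point 11, against 54.5% of 4965 genes. PGK1 mRNA was 331 RPKM at time point 11 and 2728 RPKM at time point 4, a log2 difference of −3.04, whereas CDC19 mRNA was 1567 and 1020 RPKM, a difference of 0.62. Footprints were lower at time point 11 for 8 of 10 members (43.1% of all genes) and higher for PFK1 and CDC19. TE was higher at time point 11 for 9 of 10 members (74.3% of all genes), with a median log2 difference of 0.21 for the members and 0.34 for all genes. The members thus shared the direction of most genes in TE, and TDH3 was the exception with −0.25.

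Among the 4749 genes compared, those whose log2 mRNA over the 16 time points was most like the mean course of the 10 members were ENO1 (Pearson r 0.97), ARA2 (0.94), YBR241C (0.93), YOR020W-A (0.93) and YLR152C (0.92). ENO1 is the other enolase gene and ARA2 encodes an arabinose dehydrogenase. For log2 TE they were ACT1 (0.94), the actin gene, then ILV6 (0.87), AAT2 (0.86), ISU1 (0.86) and PDC1 (0.85), the last of which encodes pyruvate decarboxylase. These genes were the highest of 4749 by construction.

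In the starvation experiment, TDH3 led the mRNA levels of replete cells of the 4 strains with CHX, with 24274 ± 2514 RPKM, followed by FBA1 with 10566 ± 2230 and ENO2 with 7961 ± 1101 (mean ± SD, n = 4). GPM1 (6661 ± 945) and CDC19 (6523 ± 412) could not be ordered, since GPM1 was above CDC19 in only 1 of 4 strains. PGK1 (4484 ± 342), TPI1 (3394 ± 433) and PGI1 (1437 ± 193) came next, each above the following gene in 4 of 4 strains. PFK2 (525 ± 24) and PFK1 (495 ± 11) were lowest and lay within their spread of each other, with PFK2 above PFK1 in 3 of 4 strains. In starved cells TDH3 (10386 ± 1104) and FBA1 (6105 ± 416) still led, but ENO2 (2224 ± 158) came after GPM1 (3471 ± 152) in all 4 strains and lay beside PGK1 (2171 ± 140), above it in 2 of 4 strains.

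Starvation with CHX was compared within the 4 strains by edgeR's quasi-likelihood test on counts, with the strain as a block and Benjamini-Hochberg adjustment over 5064 genes, called at an adjusted p under 0.05. RPKM is relative to the total of a library, so a lower level cannot be told apart from a rise of the other transcripts, and the median log2 change of all genes was 0.19 to 0.23 for mRNA RPKM and 0.27 to 0.39 for footprint RPKM, against 0.031 and 0.056 in the edgeR fits. Starved cells had lower mRNA of 10 of 10 members, where 38.1% of all genes were called lower, with a median log2 change of −1.19 over the members and 0.031 over all genes. They also had lower footprints of 10 of 10 members, where 36.1% of all genes were called lower, with a median of −1.75. The tested drop was largest at ENO2 and CDC19, the last steps of the pathway, and smallest at FBA1.

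PGI1, which converts glucose 6-phosphate to fructose 6-phosphate, had 739.7, 689.7, 778 and 711 mRNA RPKM in starved BY4741, yJW1862, yJW1863 and yJW1861, against 1724, 1310, 1370 and 1343 RPKM in replete cells in the same order of strains. Every starved value was below every replete value, and replete BY4741 was the highest. PGI1 mRNA fell by 1.15 ± 0.083 on the log2 scale (SE, edgeR adjusted p 9.75e-07). PFK1, the alpha subunit of the enzyme that commits sugar to glycolysis, averaged 232 ± 21 mRNA RPKM in starved cells and 495 ± 11 in replete cells (SD, n = 4), and PFK2, its beta subunit, averaged 268 ± 9.5 and 525 ± 24 RPKM. The subunits kept similar levels, with PFK1 between 0.820 and 1.01 times PFK2 in the mRNA of the 12 starvation samples.

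FBA1, which splits fructose 1,6-bisphosphate into triose phosphates, had 6447, 5704, 6481 and 5788 mRNA RPKM in starved cells, against 13811, 8924, 10214 and 9313 RPKM in replete cells. The groups did not overlap, and BY4741 again had the highest replete value. FBA1 mRNA fell by 0.95 ± 0.10 on the log2 scale (edgeR adjusted p 1.84e-05) and its footprints by 1.15 ± 0.21 (adjusted p 0.000687), the smallest changes of the 10 genes. TPI1, which interconverts the triose phosphates, averaged 1769 ± 229 RPKM in starved cells and 3394 ± 433 RPKM in replete cells, a log2 change in the edgeR fit of −1.12 ± 0.078.

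TDH3, which makes NADH from glyceraldehyde 3-phosphate, had 10579, 10212, 9037 and 11716 mRNA RPKM in starved cells, against 25227, 25313, 20540 and 26016 RPKM in replete cells. The lowest values of both groups came from yJW1863, and the groups did not overlap. Its footprints were 6870.1, 11386, 11204 and 13997 RPKM in starved cells, against 48725, 39967, 41911 and 39930.0 RPKM in replete cells, with BY4741 at the low end of the starved and the high end of the replete samples. TDH3 footprints fell by 2.31 ± 0.22 on the log2 scale (edgeR adjusted p 6.87e-06), more than its mRNA, which fell by 1.40 ± 0.075.

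PGK1, which gains the first ATP of the pathway, had 1967, 2210, 2218 and 2289 mRNA RPKM in starved cells, against 4946, 4171, 4289 and 4529 RPKM in replete cells. Its footprints were 4400, 5260, 4089 and 4478 RPKM, against 13056, 8551, 8002 and 8655 RPKM, so that replete BY4741 stood well above the other 3 strains. PGK1 mRNA fell by 1.22 ± 0.093 and footprints by 1.34 ± 0.20 on the log2 scale (edgeR adjusted p 1.33e-06 and 0.00015). GPM1, the mutase of the next step, averaged 3471 ± 152 RPKM in starved and 6661 ± 945 RPKM in replete cells and changed by −1.11 ± 0.089 in mRNA and −1.46 ± 0.23 in footprints.

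ENO2, which makes phosphoenolpyruvate, had 2138, 2058, 2414 and 2286 mRNA RPKM in starved cells, against 9516, 6921, 7736 and 7673 RPKM in replete cells. Its footprints were 2852, 3853, 2534 and 3738 RPKM in starved cells, against 27978, 16244, 18026 and 16467 RPKM in replete cells. Neither measure overlapped between the groups, and replete BY4741 was the highest in both. ENO2 mRNA fell by 2.01 ± 0.092 (edgeR adjusted p 3.47e-08) and ENO2 footprints fell by 2.88 ± 0.24 on the log2 scale (adjusted p 1.90e-06).

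CDC19, which makes pyruvate and the second ATP of the lower part, had 1809, 2163, 1945 and 2170.3 mRNA RPKM in starved cells, against 6663, 6605, 5933 and 6890.4 RPKM in replete cells. CDC19 footprints were 1597, 2496, 1968 and 2364 RPKM in starved cells, against 15197, 10481, 11031 and 10646 RPKM in replete cells. The starved samples were below the replete samples of all 4 strains in both measures. CDC19 mRNA fell by 1.87 ± 0.090 and footprints by 2.79 ± 0.24 on the log2 scale (edgeR adjusted p 5.02e-08 and 3.14e-06).

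**Figure D3:**
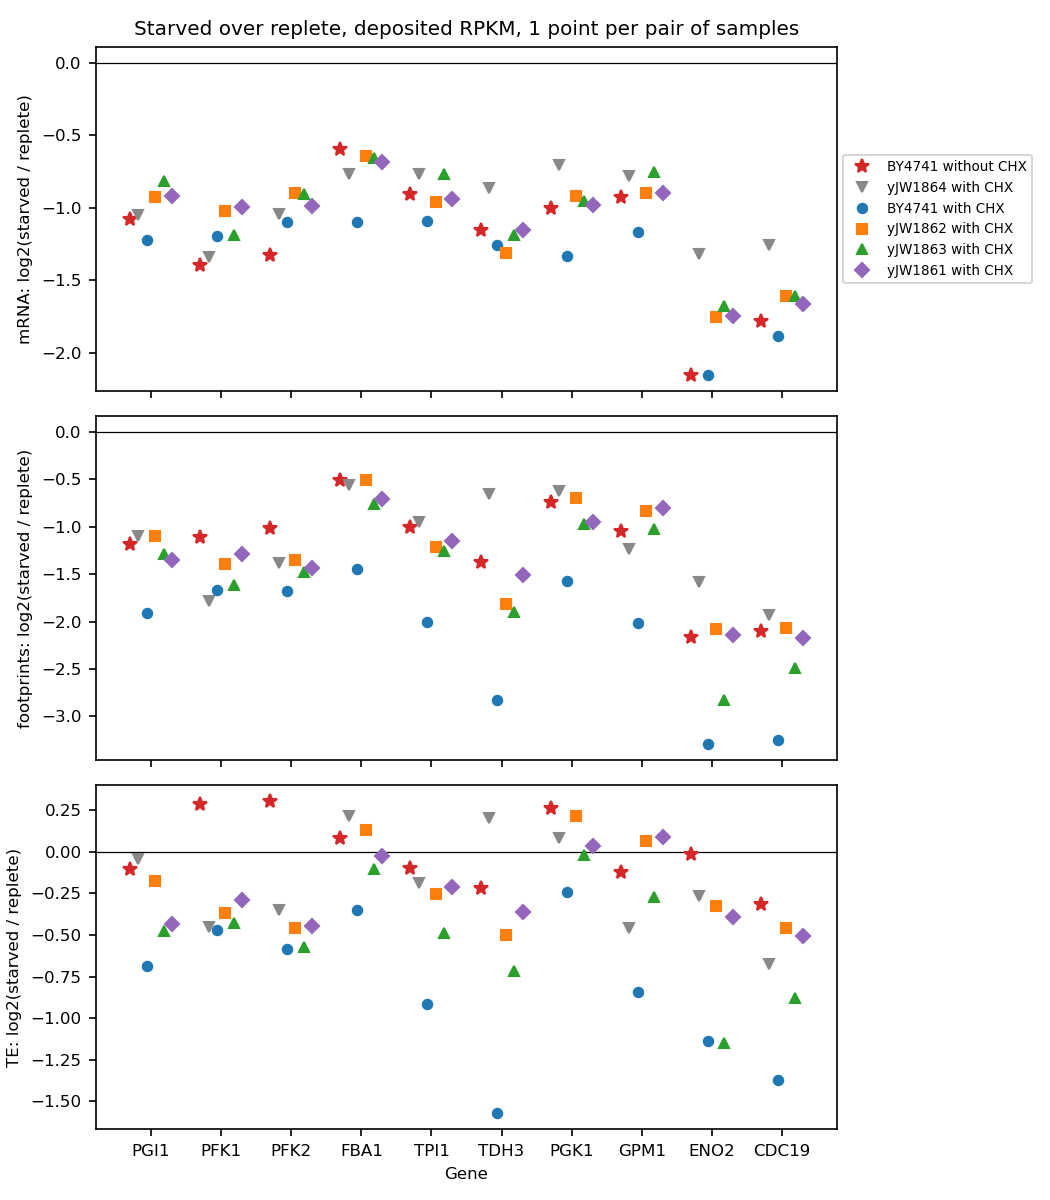
Log2 change of mRNA, footprints and TE (starved over replete, deposited RPKM) of the 10 genes, 1 point per pair of samples, for BY4741 without CHX, yJW1864, BY4741, yJW1862, yJW1863 and yJW1861. All mRNA and footprint points lie below 0, down to −3.29 for ENO2 footprints in BY4741 with CHX, and TE points without CHX lie between −0.31 and 0.31.

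With CHX, TE was lower in starved cells for 7 of 10 members, where 23.7% of all genes were called lower, with a median log2 change of −0.57 over the members and −0.013 over all genes (edgeR, interaction of starvation with library type). The largest falls were at CDC19 (−0.92 ± 0.25, adjusted p 0.0119), TDH3 (−0.90 ± 0.24, adjusted p 0.011) and ENO2 (−0.87 ± 0.26, adjusted p 0.0182). PFK2 had a smaller change with a narrower error (−0.63 ± 0.12, adjusted p 0.00186), and PGI1, PFK1 and TPI1 fell by 0.56, 0.51 and 0.58. FBA1 (−0.20 ± 0.23), PGK1 (−0.12 ± 0.21) and GPM1 (−0.35 ± 0.25) did not pass the test, with adjusted p of 0.50, 0.667 and 0.284.

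The TE calls depended on single strains and on the block more than the mRNA and footprint calls did. CDC19 TE was 0.88, 1.15, 1.01 and 1.09 in starved BY4741, yJW1862, yJW1863 and yJW1861, against 2.28, 1.59, 1.86 and 1.55 in replete cells. TDH3 TE was 0.65, 1.12, 1.24 and 1.19, against 1.93, 1.58, 2.04 and 1.53. The groups did not overlap for either gene, and the change in BY4741, −1.37 for CDC19 and −1.57 for TDH3, was larger than in the 3 reporter strains. The members' median TE change was −0.76 in BY4741, against −0.29 in yJW1862, −0.48 in yJW1863 and −0.33 in yJW1861. Without yJW1863, edgeR called 0 of 10 members (2 at an unadjusted p under 0.05), where 721 of 5034 genes were called lower. Without yJW1862 it called 4 (920 of 5073 genes lower), without yJW1861 6 (1042 of 5076) and without BY4741 7 (1229 of 5067). With all strains but without the strain block it called 2, TDH3 and CDC19, where 653 of 5064 genes were called lower, against 1199 with the block. The lower TE calls over all genes thus fell as well, except without BY4741. The mRNA and footprint fits kept 10 calls in each of these settings. The size of the change varied less than the calls, with a median log2 TE change over the members of −0.57 with all strains and the block. It was −0.48 without BY4741, −0.51 without yJW1863, −0.65 without yJW1861, −0.67 without yJW1862 and −0.64 without the block.

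Without CHX, mRNA and footprints of the 10 genes were also lower in starved BY4741, while TE differed less, with changes in both directions. This pair has no replicate. mRNA was lower for 10 of 10 members (34.7% of 4572 genes), from −0.59 for FBA1 to −2.15 for ENO2 on the log2 scale, and footprints were lower for 10 of 10 (27.3% of all genes), from −0.51 for FBA1 to −2.16 for ENO2. ENO2 had 2721 mRNA RPKM in starved and 12082 in replete cells without CHX, with 4188 and 18765 footprint RPKM. CDC19 had 2391 and 8224 mRNA RPKM, with 2859 and 12224 footprint RPKM, a fall close to that of ENO2.

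TE without CHX was lower in starved cells for 6 of 10 members (25.1% of all genes), with a median log2 change of −0.056 for the members and 0.25 for all genes. ENO2 TE was 1.54 in starved and 1.55 in replete cells, a change of −0.013 (95% counting interval −0.053 to 0.027). CDC19 had the largest fall, with a TE of 1.20 in starved and 1.49 in replete cells (−0.31, interval −0.34 to −0.29). The phosphofructokinase subunits were the members with the largest rises, PFK2 with 1.14 and 0.92 (0.31, interval 0.25 to 0.36) and PFK1 with 1.25 and 1.03 (0.29, interval 0.23 to 0.34). PFK2, PFK1 and PGK1 lay above the median change of all genes, and the other 7 members lay below it. With the median of all genes subtracted, the members' median TE change without CHX was −0.30, against −0.86 in BY4741, −0.38 in yJW1862, −0.61 in yJW1863 and −0.36 in yJW1861 with CHX.

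The difference between the starvation changes without and with CHX was tested as an interaction in edgeR, with the single pair without CHX assumed to vary like the 4 strains. No member was called, with 0 of 10 in mRNA (5.71% of 5044 genes called in either direction), 0 of 10 in footprints (0.515%) and 0 of 10 in TE (2.56%). At an unadjusted p under 0.05 there were 1, 0 and 1 members, PFK2 in mRNA and in TE. The share of all genes at this p is not given, so nothing is drawn from these counts. DESeq2 called 1 member in mRNA, PFK2 (log2 difference −0.43, adjusted p 0.0406), where 320 of 5044 genes were called. It called 0 members in footprints (73 of 5044 genes) and 0 in TE (172 of 5044). The members' median difference in TE was 0.31, with the largest for PFK2 (0.70 ± 0.28, edgeR adjusted p 0.294) and ENO2 (0.62 ± 0.57, adjusted p 0.692). Without the BY4741 pair with CHX, an alternative chosen after seeing the data, the median difference was 0.13. With 1 pair the errors were wide, and a p that misses the threshold does not show that the changes with and without CHX were alike.

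Set directly against BY4741 without CHX, BY4741 with CHX had higher TE of the 10 genes in replete cells, while TE of most other genes was lower. In replete cells TE was higher with CHX for 10 of 10 members, against 11.9% of 4702 genes, with a median log2 difference of 0.38 for the members and −0.80 for all genes. ENO2 TE was 2.94 with CHX and 1.55 without, PGK1 TE was 2.64 and 1.62, and CDC19 TE was 2.28 and 1.49. FBA1 was the least different, with 1.34 and 1.32. Replete footprints were higher with CHX for 9 of 10 members (16.1% of all genes), with PFK1 the exception.

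The reporter strains added samples with CHX only, so the comparison still rests on the single BY4741 sample without CHX, which every member shares. In replete cells TE of all 4 strains with CHX was above that of BY4741 without CHX for 8 of 10 members, a pattern seen in 8.32% of 4685 genes. The exceptions were PGI1 and TPI1, whose lowest values with CHX, 1.42 and 1.97, were below 1.49 and just below 1.97 without CHX. The strains differ in the positions counted as well as in genotype, and the part of these in the comparison was not tested.

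In starved cells TE was lower with CHX for 9 of 10 members in BY4741 (93.2% of 4826 genes), with a median log2 difference of −0.43 for the members and −0.94 for all genes. TDH3 TE was 0.65 with CHX and 1.09 without, and PFK1 TE was 0.81 and 1.25. PGK1 was the exception with 2.24 and 1.94. This direction depends on the scaling. With the median of all genes subtracted, TE was higher with CHX for 10 of 10 members in starved cells, with a median log2 difference of 0.52, as it was in replete cells, with a median of 1.18. Starved footprints were lower with CHX for 10 of 10 members (89.1% of all genes), and for 2 of 10 with the median of all genes subtracted. All 4 strains with CHX lay below BY4741 without CHX in starved TE for 3 of 10 members, PFK1, PFK2 and CDC19 (68.2% of 4800 genes), and in starved footprints for 8 of 10 (51% of all genes).

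**Figure D4:**
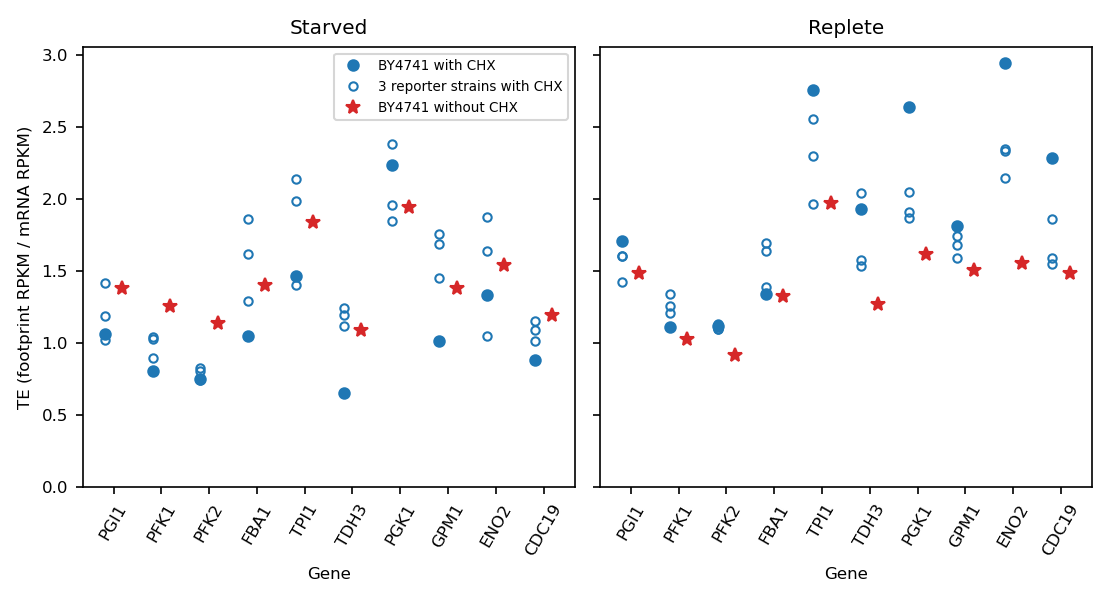
TE (footprint RPKM over mRNA RPKM) of the 10 genes in starved (left) and replete (right) cells, with filled circles for BY4741 with CHX, open circles for the 3 reporter strains with CHX and stars for BY4741 without CHX. In replete cells ENO2 with CHX lies between 2.15 and 2.94, above 1.55 without CHX, and in starved cells PFK2 with CHX lies between 0.74 and 0.82, below 1.14 without CHX.

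In the strain labelled yJW1864, mRNA and footprints of the members were again lower in starved than in replete cells. ENO2 had 3791 and 9448 mRNA RPKM and 5735 and 17195 footprint RPKM in starved and replete cells, and CDC19 had 2657 and 6340.4 mRNA RPKM. TDH3 mRNA was 12430 in starved and 22623 in replete cells, with 19321 and 30517 footprint RPKM. These falls were smaller than in the 4 strains for ENO2, CDC19 and TDH3 by value, but the interaction test in edgeR called 0 of 10 members in mRNA (17.1% of 5060 genes called in either direction), 0 of 10 in footprints (12.9%) and 0 of 10 in TE (2.96%). At an unadjusted p under 0.05 there were 1 member in mRNA (ENO2, 0.53 ± 0.20, edgeR adjusted p 0.112), 2 in footprints and 0 in TE. The 2 in footprints were TDH3 (1.49 ± 0.48, edgeR adjusted p 0.0747) and ENO2 (1.14 ± 0.49, adjusted p 0.174). The share of all genes at the unadjusted p is not given. TDH3 footprints were called by DESeq2 (log2 difference 1.42, adjusted p 0.0202), where 675 of 5060 genes were called. They were also called by edgeR without the BY4741 pair (1.22, adjusted p 0.0143), where 1211 of 5057 genes were called. DESeq2 called 0 members in mRNA (729 of 5060 genes) and 0 in TE (150 of 5060). This strain gave 1 pair, so the errors were wide. A p that misses the threshold does not show that its changes were like those of the 4 strains. As the label of this strain is only partly borne out, no direction is tied to the deletions.

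The minor isozymes and the hexose kinases did not all move with the 10 enzymes. In a list of 9 such genes, starved cells of the 4 strains with CHX had higher mRNA of 3 (42.1% of all genes were called higher) and lower mRNA of 5 (38.1% called lower) in the edgeR fit, with a median of −0.30. They had higher footprints of 3 (39.8% of all genes) and lower footprints of 5 (36.1%). TE was lower for 4 (23.7% of all genes called lower) and higher for 0 of them (17.2% of all genes called higher), with ENO1, TDH2, HXK2 and GPM3 lower. PYK2, the minor pyruvate kinase, averaged 103 ± 6.3 mRNA RPKM in starved cells and 33.7 ± 4.3 in replete cells (SD, n = 4), a rise of 1.44 ± 0.058 on the log2 scale (SE, edgeR adjusted p 1.49e-08) where CDC19 fell by 1.87. In RPKM, the change of CDC19 minus that of PYK2 was −3.30 ± 0.15 (SD over 4 strains). GPM2, a homolog of phosphoglycerate mutase, also rose (1.11 ± 0.070, adjusted p 3.43e-07), although its level stayed far under that of GPM1, with 69.1 ± 17.1 mRNA RPKM in starved and 28.5 ± 7.6 in replete cells.

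Among the hexose kinases, which phosphorylate glucose before PGI1 acts, HXK2 fell most, with 182 ± 17 mRNA RPKM in starved and 963 ± 61 in replete cells (log2 change −2.58 ± 0.069, edgeR adjusted p 2.18e-09). HXK1 fell less (−1.16 ± 0.084), and the glucokinase gene GLK1 rose by 0.82 ± 0.056 (adjusted p 6.11e-07). GLK1 mRNA was 523 ± 117 RPKM in starved cells and 262 ± 61 in replete cells, so that it lay above HXK2 in starved and below it in replete cells. ENO1 fell by 0.92 ± 0.070, less than ENO2, and the difference in RPKM of ENO2 minus ENO1 was −1.09 ± 0.11 (SD over 4 strains). TDH2 fell by 2.51 ± 0.11 while TDH1 did not pass the test (0.054 ± 0.098, adjusted p 0.63). TDH2 was counted over 81 bases and ENO1 over 298, so the split of reads between these isozymes and TDH3 or ENO2 is uncertain.

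**Figure D5:**
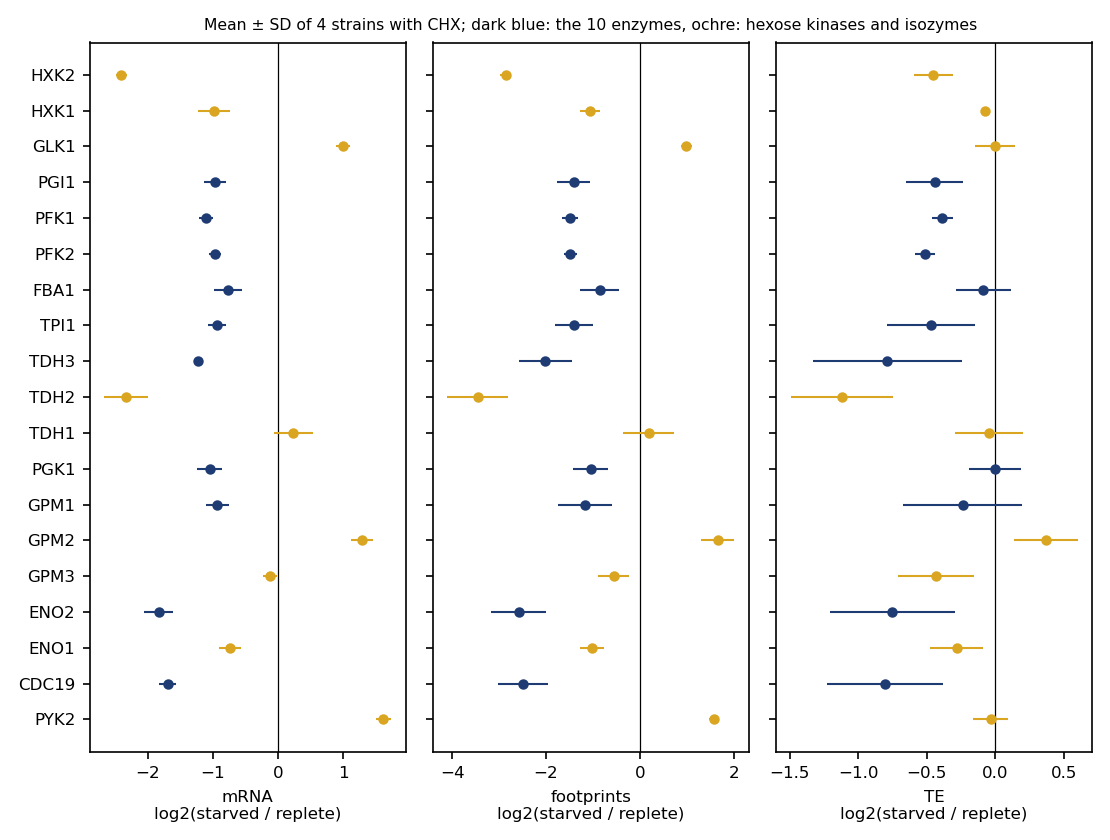
Mean log2 change of mRNA, footprints and TE (starved over replete, deposited RPKM, SD over the 4 strains with CHX) of the 10 enzymes (dark blue) and of 9 hexose kinase and isozyme genes (ochre), in pathway order. PYK2, GPM2 and GLK1 lie to the right of 0 in mRNA, and CDC19 lies at −1.69.

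Regulators of the pathway were called in both directions. Of 7 listed genes, mRNA was higher in starved cells for 3 (42.1% of all genes called higher), namely PFK26 (0.28 ± 0.059), PFK27 (0.43 ± 0.094) and FBP26 (0.89 ± 0.049), which make or break down fructose 2,6-bisphosphate, the activator of phosphofructokinase. The activators GCR1 (−0.22 ± 0.068), GCR2 (−0.30 ± 0.060) and RAP1 (−0.47 ± 0.050) were lower (38.1% of all genes called lower), and TYE7 did not pass the test (edgeR adjusted p 0.0736). The fall of GCR1 depended on the scaling, since its mean log2 change in RPKM was −0.039, with 2 of 4 strains lower. In RPKM GCR2 changed by −0.12 and RAP1 by −0.29, both lower in 4 of 4 strains. The 3 mRNA calls in each direction are close to the shares of all genes. In footprints 2 of these 7 genes were higher (39.8% of all genes) and 1 lower (36.1%), with FBP26 changed by 1.20 ± 0.091, and in TE 1 was higher (FBP26, 17.2% of all genes) and 1 lower (RAP1, 23.7%).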

How the data were processed

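Ribosome profiling and RNA-seq libraries of 28 biological samples were used, and groups were taken from the sample labels. The authors clipped reads (FASTX), removed rRNA and tRNA reads with Bowtie 1.1.2, aligned the rest to sacCer3 with TopHat2 2.1.1 (CASAVA is also named in the submitters' notes) and counted them with plastid, placing footprints at the P-site and stranded RNA-seq reads at their 5′ end. Positions that are not unique and both ends of each coding sequence were masked. The deposited values are raw counts per gene and RPKM, which the authors normalized to unmasked length and total reads, and the deposited time point table gives elapsed hours and dissolved oxygen as a percent. From the deposited RPKM, 108 bases were left out of each coding sequence at its ends in BY4741, CEN.PK and yJW1864, and 33 in the reporter strains.

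TE was footprint RPKM over mRNA RPKM. Counts were tested with edgeR 4.0.16 (R 4.3.3, quasi-likelihood, TMM, Benjamini-Hochberg) after 784 dubious ORFs and genes averaging under 128 mRNA counts or under 1 footprint were left out. Starved and replete cells are parts of 1 culture according to the methods, so strain was a block. Deviations of both from their group means correlated at 0.585 to 0.823 (mRNA) and 0.477 to 0.764 (footprints). Samples of a strain also share genotype and counted positions, so these correlations cannot show that they came from 1 culture. The fits were tested on simulated data. Alternatives were DESeq2 1.42.0, RLE factors, subtraction of the all-gene median, fits without the filter or the block, fits leaving out a strain, and for the YMC other scalings, other folds and the second extremes. The 10 members were named by rule, as were all genes of the 2 other lists and the 5 most alike genes. Members and lists were chosen with earlier results of these data known. Counting intervals (95%) treat reads as independent. All columns of values were matched to samples, with 0 left over.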

Additional observations from a re-analysis of the deposited data

Results flagged for a closer look

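Among the 90 groups of 4 strains tested, 9 held a sample far from the other 3, of which 8 were BY4741 with CHX. Chance flags about 1 in 20 independent groups. The groups tested share libraries and are not independent, so the 9 flags cannot be judged against that rate. BY4741 also had more bases left out at the ends of coding sequences than the reporter strains. The part of this difference in the flags was not tested. In replete cells, BY4741 with CHX had 1724 RPKM of PGI1 mRNA, where the reporter strains had 1310 to 1370 RPKM. It also had 13056 RPKM of PGK1 footprints (others 8002 to 8655), 27978 RPKM of ENO2 footprints (others 16244 to 18026) and 15197 RPKM of CDC19 footprints (others 10481 to 11031). The change of starved over replete cells in BY4741 with CHX was larger than in the reporter strains for FBA1 mRNA (−1.10, others −0.69 to −0.65), TPI1 footprints (−2.0045, others −1.25 to −1.15), PGK1 mRNA (−1.33, others −0.98 to −0.92) and ENO2 mRNA (−2.15, others −1.75 to −1.68) on the log2 scale. The remaining sample was replete yJW1863, with 20540 RPKM of TDH3 mRNA (others 25227 to 26016).

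The edgeR interaction test called 0 of the 10 enzymes as different between pairs in their starvation change, where the DESeq2 fits called PFK2 mRNA without CHX and TDH3 footprints in yJW1864, but it called some genes of the 2 other lists. Without CHX, against the 4 strains with CHX, the log2 starvation change of mRNA was lower by −0.99 for HXK1 (edgeR adjusted p 0.0233), −0.63 for GLK1 (adjusted p 0.018) and −0.98 for TYE7 (adjusted p 0.0363). In yJW1864, against the 4 strains, the difference in mRNA change was 1.12 for HXK1 (adjusted p 0.00389), 0.52 for PYK2 (adjusted p 0.0232) and −0.92 for TYE7 (adjusted p 0.00727). The largest was 2.49 for TDH2 footprints (adjusted p 0.00546), where TDH2 is counted over 81 bases.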

How the results depend on the processing

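The 10 calls in mRNA and the 10 in footprints under starvation with CHX were kept in every alternative run. In TE, 7 members were called with the strain as replicate block and 2 without it, where 1199 and 653 of 5064 genes were called lower. When 1 strain was left out the count was 0 to 7, with 0 without yJW1863 and 4 without yJW1862. Fewer samples enter these fits, and 721 of 5034 and 920 of 5073 genes were called lower in them. DESeq2 called 1 member in mRNA for the pair without CHX (320 of 5044 genes called) and 1 in footprints for yJW1864 (675 of 5060). In footprints for yJW1864, leaving out a strain gave 0 to 1 calls, where 434 to 1211 genes were called. In the YMC, 5 members passed a 3-fold range in mRNA and 5 in footprints, where the median range of all genes was 2.72-fold and 3.93-fold. In TE, 1 passed a 2-fold range with each sample divided by its median, where the median of all genes was 1.99-fold. With TMM-scaled CPM, 1 passed a 2-fold range in TE. A 1.5-fold range in TE was passed by 3 members, where the lower quartile of all genes was 1.78-fold. The percent of all genes that passed is not given for these other folds and scalings. The counts of members at them are thus a description only. Dividing each sample by its median turned the order of the median footprint ranges of members and all genes (4.25-fold and 3.60-fold), as did the second extremes (2.88-fold and 2.76-fold), and it turned the direction of the starved CHX comparison in TE.

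Differences near 0, none of them called, changed sign in some alternatives. For the pair without CHX, the mRNA difference turned to 0.011 to 0.031 for TDH3 when a strain was left out (0.0088 with the all-gene median subtracted), to 0.025 for PGK1 and to 0.0027 for TPI1. The footprint difference turned to −0.13 for PGI1 (−0.036 with the median subtracted), −0.046 for FBA1, −0.062 for PGK1, −0.014 for ENO2, −0.050 for CDC19 and 0.026 to 0.049 for GPM1 when a strain was left out. The TE difference of GPM1 turned to 0.074 to 0.10 when a strain was left out, 0.025 with no filter and 0.059 without the replicate block, and that of FBA1 to −0.065 when a strain was left out and −0.030 with the median subtracted. For yJW1864, the FBA1 mRNA difference turned to −0.088, −0.023 and −0.016 when BY4741, yJW1863 or yJW1861 was left out, −0.052 with RLE factors, −0.052 with DESeq2, −0.044 with no filter and −0.029 with the median subtracted. The GPM1 footprint difference turned to −0.21 when a strain was left out and to −0.0052 with RLE factors and −0.0052 with DESeq2, and the GPM1 TE difference to 0.076 to 0.10 when a strain was left out. The cause was not tested.

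The share of higher calls over all genes in mRNA of yJW1864 was 75.7%, 64.8% with RLE factors and 66.6% with no filter. Single pairs and single time points have no replicate, and TDH3, ENO2, ENO1 and TDH2 rest on few counted bases. In the YMC, the ranges of all genes come from a set that was not matched to the members in counts.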

Other observations

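Over the metabolic cycle HXK1, GLK1 and ENO1 had wider mRNA ranges than each of the 10 enzymes, whereas HXK2, with 4.87-fold, did not. HXK1 mRNA was 3079 RPKM at time point 3 and 34.4 RPKM at time point 10, a range of 89.6-fold, and GLK1 mRNA was 1099 RPKM at time point 3 and 39.8 RPKM at time point 11, a range of 27.6-fold. ENO1 mRNA reached 3191 RPKM at time point 6, near the 3408 RPKM of ENO2 there, and dropped to 154 RPKM at time point 11, where ENO2 had 1290.3 RPKM. PYK2 mRNA was highest at time point 2 with 102 RPKM and lowest at time point 11 with 8.14 RPKM, a different course from CDC19. Of the genes for fructose 2,6-bisphosphate metabolism, PFK26 mRNA was highest at time point 3 (91.8 RPKM) and lowest at time point 11 (8.82 RPKM), and PFK27 mRNA was highest at time point 10 (173 RPKM) and lowest at time point 2 (8.41 RPKM).

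The subunits of phosphofructokinase did not keep a constant ratio in the cycle. PFK1 mRNA was 0.661 times PFK2 mRNA at time point 4 and 0.974 times at time point 11, and the ratio of their footprints was 0.676 at time point 4 and 1.30 at time point 11. No time point has a replicate.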
